A study of Mus musculus with 40 samples.

Results

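The genes followed here are 44 genes that are imprinted in the mouse, traced through 5 stages of oocyte growth. A probe set was taken where its platform gene symbol was exactly 1 of these 44 names, which gave 104 of the 45037 probe sets on the arrays and 42 of 18193 genes. H19 and Rtl1 had no such probe set. A further 8 probe sets carried 2 symbols and were left out, 6 of them for Snurf and Snrpn, 1 for Mir675 and H19, and 1 for Airn and Igf2r. The rule uses the gene's name and no signal.

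Imprinted genes are expressed mainly from 1 parental chromosome, because the DNA of one germ line carries methylation at a control region that the other germ line lacks. In the mouse most maternal imprints are written in the growing oocyte, after birth, by the methyltransferase DNMT3A with its partner DNMT3L, over promoters that lie inside transcripts made in the oocyte. Many of the proteins act in growth of the fetus and placenta, in metabolism or in the brain, and the arrays do not tell alleles apart, so the signals here say nothing of allelic expression.

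Oocytes came from SJLB6 female mice at each stage and carried no other genotype or treatment named in the labels. A primordial sample pooled 400 oocytes of 2-day-old mice and a primary sample 90 oocytes of 6-day-old mice. A secondary sample pooled 60 at an age of 12 days, a small antral sample 30 at 17 days and a large antral sample 20 at 24 days. Each stage had 4 biological replicates on each of 2 Affymetrix array types, 430A and 430B, which made 40 samples. Stage, age and pool size cannot be told apart, the labels do not say which animals gave each sample, and a p-value therefore measures the spread between these samples.

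A value below is a scaled signal, the array's brightness for a probe set after each array was brought to the same trimmed mean of 500. It is a relative level and serves to compare samples for 1 probe set, not genes with each other. A fold is given as a log2 change of signal plus 32, later stage minus earlier stage, with its standard error (SE, n = 4 per stage). A gene was called where limma's Benjamini-Hochberg adjusted p over the whole array type was under 0.05. The median SE was 0.17 on 430A and 0.34 on 430B.

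Primordial replicates 2 to 4 had the form of means with replicate 1: 2 times their value minus replicate 1 was negative for 0 probe sets, with 99 of 430A left out for their number format, against 1085 to 3773 in pairs of replicates of other stages. Spreads at that stage were therefore understated, and for the genes described below the change from it is also given from "unmixed" values, which are 2 times the deposited value minus replicate 1, for the probe set that stands for the gene. On 430B, 3 small antral samples have an extraction protocol that names the 12-day age of the secondary stage. Of 12 oocyte markers 11 were tested on 430A, and their summed signal lay between 57741 and 73602 in primordial samples, 118139 and 123548 in primary, 122053 and 135584 in secondary, 111510 and 126447 in small antral, and 86421 and 95912 in large antral. Of 14 granulosa cell markers 7 passed the filter on 430A, with sums of 822 to 1135 in primordial and 1829 to 2027 in large antral samples. Between these stages the means of Nr5a2, Inha, Inhbb and Hsd17b1 went from 187, 278, 42.5 and 21.5 to 611, 568, 169 and 111. Those of Fshr, Kitl and Fst were 188, 194 and 104, then 190, 188 and 99.7. Amh and Wt1 passed the filter on neither array type, with highest 430A signals of 37.7 and 91.2. Sums over 5 of 9 surface epithelium markers went from 1121 to 1210 up to 2798 to 3225, over 5 of 8 endothelium markers from 437 to 662 up to 863 to 1122, and over 4 of 9 blood and macrophage markers from 546 to 1119 to 547 to 636. The largest part of the surface epithelium sum was Cdh1, with a mean of 507 in primordial and 2406 in large antral samples. Over both array types 6 surface epithelium markers were tested from primordial to primary. Cdh1 and Krt8 rose (0.85 ± 0.11 and 0.53 ± 0.16, SE; adjusted p = 6.7e-07 and 0.0066). Krt18 went from 156 to 37.8 (-1.52 ± 0.29, SE; adjusted p = 9.3e-05), Upk1b fell on 430B (-1.48 ± 0.43, SE; adjusted p = 0.011), and the others were not called. Krt8 had a mean of 269 in primordial and 194 in large antral samples. The part of such cells in the results was not tested.

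Of the 42 genes with a probe set, 32 passed the filter for low signals, which asked for a scaled signal of at least 100 on at least 4 of the 20 arrays of a type. The other 10 stayed below it, namely Peg10, Snrpn, Nnat, Mkrn3, Slc22a18, Zim1, Slc38a4, Peg12, Calcr and Tfpi2. Their highest signals on any array ranged from 4.6 for Peg12 to 126.3 for Calcr. Peg10 and Snrpn, which are among the best studied paternally expressed genes, did not exceed 52.2 and 43.6, where Snrpn was read from 1 probe set with the 6 shared with Snurf left out. Inpp5f, Ppp1r9a, Trappc9 and Tspan32 were represented on 430B and the other 28 tested genes on 430A. Ascl2 and Pon3 reached 100 in the primordial samples alone, and Dcn in these and in 1 small antral sample, so these 3 genes passed the filter through the primordial stage. The filter used those values, so their difference from it is given as a description, with no test.

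The imprinted genes moved in both directions, most of all at the first transition. From primordial to primary, 25 of the 32 tested were called, 13 higher and 12 lower, where 48.6% of all 15426 tested genes were called, 25.2% higher and 23.4% lower. The 12 lower include Ascl2, Dcn and Pon3. Without genes that passed the filter through 1 stage, a restriction chosen after the data were seen, 22 of 29 were called, 13 higher and 9 lower, beside 48.9% of all 14490 such genes. From primary to secondary 9 were called, 3 higher and 6 lower, with 15.8% of all genes called, 9.13% higher and 6.69% lower. From secondary to small antral 4 were called, 2 in each direction, where the share of all genes was 14.2%, with 5.42% higher and 8.82% lower. From small to large antral 5 were called, 2 higher and 3 lower, with 7.29% of all genes called, 2.99% higher and 4.30% lower. Over the whole of growth, from primary to large antral, 17 were called, 8 higher and 9 lower, where 34.6% of all genes were called, 17.1% higher and 17.5% lower. Comparisons that name the same stage share its samples.

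The members' shares were 78.1%, 28.1%, 12.5%, 15.6% and 53.1% in that order. Their median log2 changes were 0, -0.03, 0.03, -0.05 and -0.13, beside -0.05, 0, -0.01, 0.01 and 0.01 over all tested genes, so the set as a whole had no common direction. With unmixed primordial values, 19 of 31 tested members were called from primordial to primary (41.3% of all genes), Dcn and Pon3 among them, 5 from primary to secondary (6.95%), 4 from secondary to small antral (7.24%), 1 from small to large antral (1.84%) and 14 from primary to large antral (24.8%). The fit uses 1 variance per probe set over all 5 stages. The count from small to large antral was 2 without large antral replicate 1 or 2 or without small antral replicate 2, and 3 without large antral replicate 3 or without small antral replicate 1.

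**Figure D1:**
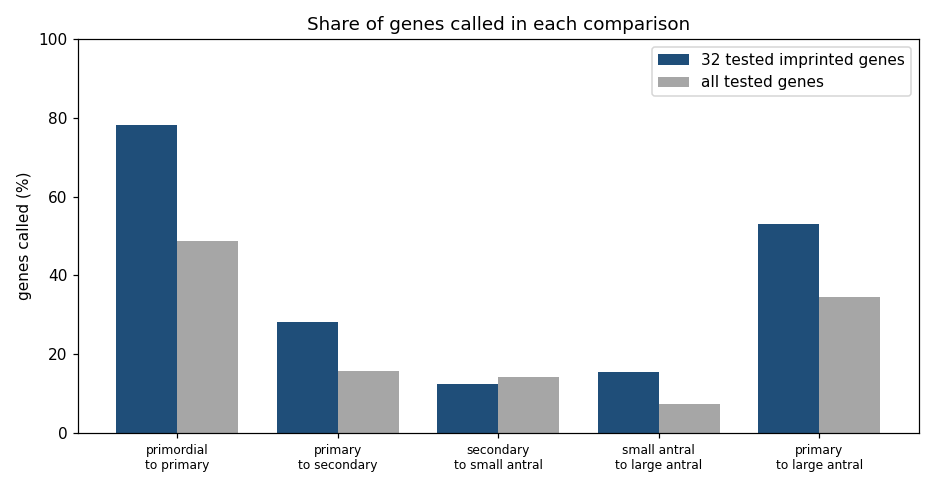
Share of tested genes called at an adjusted p under 0.05 (percent, vertical axis) in each of 5 comparisons between stages (horizontal axis), for the 32 tested imprinted genes (blue) and all 15426 tested genes (grey). The imprinted genes' bar stands at 78.1% beside 48.6% from primordial to primary, with Ascl2, Dcn and Pon3 counted, and at 12.5% beside 14.2% from secondary to small antral.

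Of the 32, 28 were called in at least 1 comparison, where 63.1% of all tested genes were, and Magel2, Usp29, Tspan32 and Pon2 in none. Ascl2, Dcn and Pon3 were called in the first transition alone. The mean signal was highest at the primordial stage for 12 genes, these 3 included, at the primary for 5, at the secondary for 4, at the small antral for 5 and at the large antral for 6. Those expressed from the paternal chromosome numbered 13 among the tested, of which 6 rose and 3 fell from primordial to primary, and 2 rose and 5 fell from primary to large antral. Those expressed from the maternal chromosome, or from it in some tissues, numbered 19, of which 7 rose and 9 fell from primordial to primary, Ascl2, Dcn and Pon3 among the 9, and 6 rose and 4 fell from primary to large antral. Of all tested genes 25.2% rose and 23.4% fell from primordial to primary, and 17.1% rose and 17.5% fell from primary to large antral. The difference between these classes was not tested.

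A gene is described with every sample's value where it was called with a log2 change of at least 1 and no overlap between the samples of the stages compared, in at least 1 comparison, which took 17 genes. Values are given in the order of replicates 1 to 4, which has no meaning of its own.

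**Figure D2:**
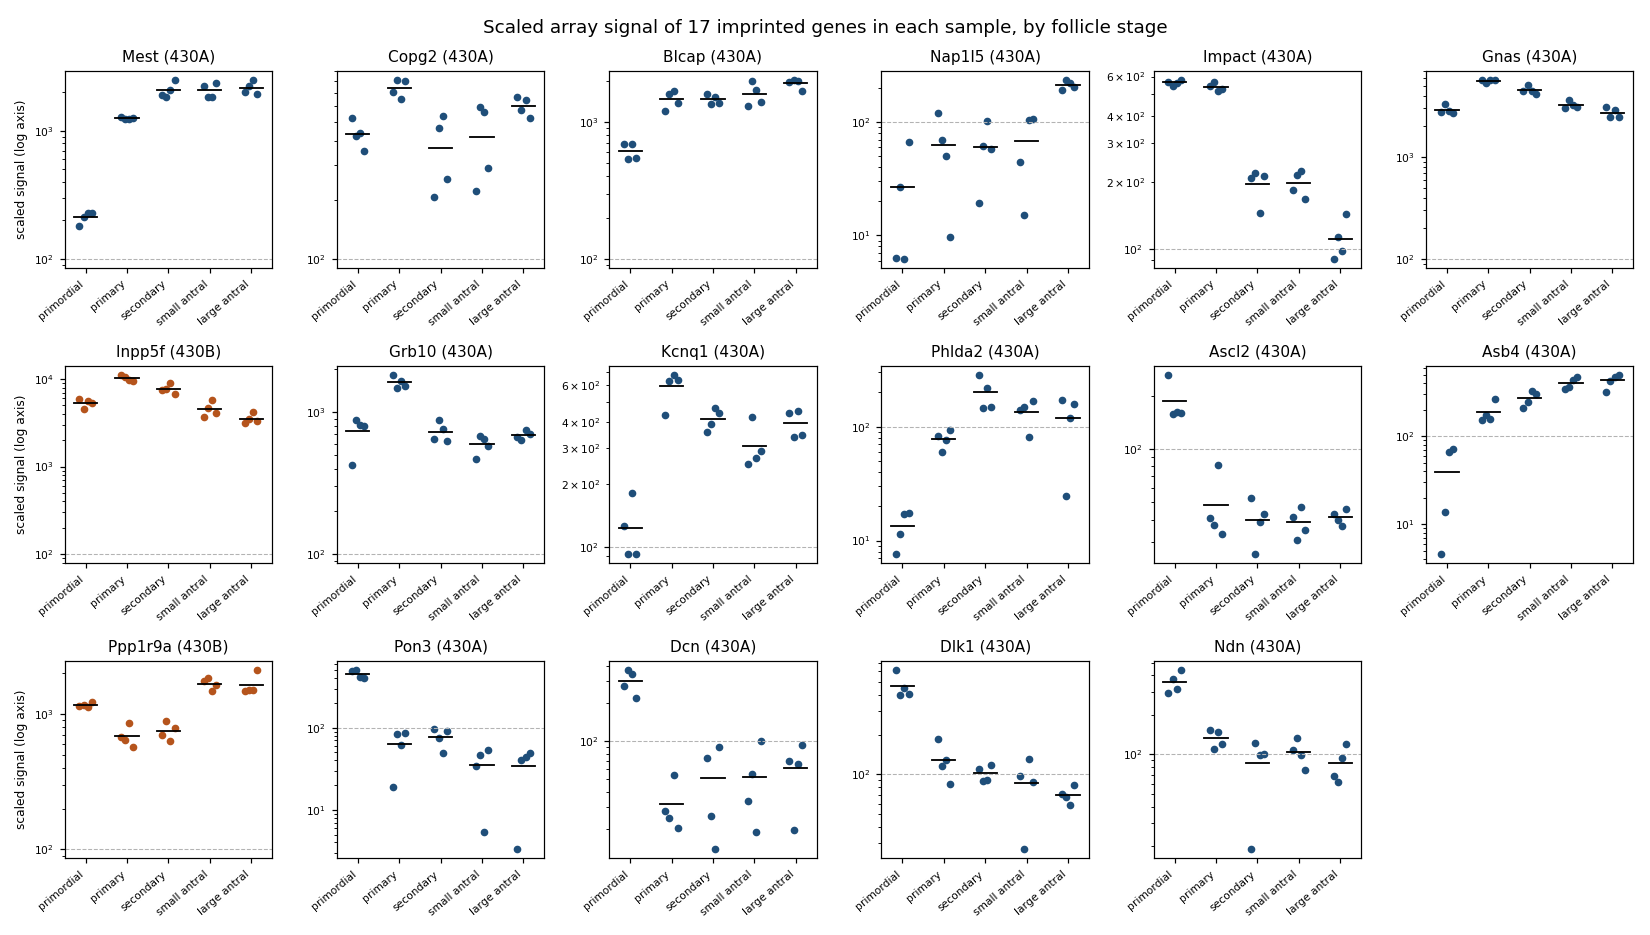
Scaled signal (vertical log axis) of the 17 described imprinted genes in each of 20 samples of the array type named in each panel's title, by follicle stage (horizontal axis). Points are samples, blue for 430A and orange for 430B, black bars are means of the 4 values as deposited, and the dashed line marks a signal of 100. Mest stands between 181.8 and 227.7 in primordial samples and at or above 1242.5 in all others, whereas Pon3 stands above 400 in primordial samples and below 100 in all others.

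Several genes have a promoter that becomes methylated in oocytes, which in most of them silences the maternal copy in the embryo. Mest and Nap1l5 are paternally expressed genes of this kind on chromosome 6, and Copg2 lies next to Mest. Their promoters, from RefSeq on GRCm38.p6, are printed because these 3 genes are described next and each window holds the letters TGCCGC or its reverse complement GCGGCA, the hexamer that the imprint-protecting protein ZFP57 binds when it is methylated. Capitals mark every match on either strand, and each window runs 5′ to 3′ along the gene from 250 bases before to 50 after the start. The printed Mest window is chr6:30737800-30738099 on the plus strand, the Nap1l5 window chr6:58907077-58907376 on the minus strand, and the Copg2 window chr6:30896745-30897044 on the minus strand.
Mest: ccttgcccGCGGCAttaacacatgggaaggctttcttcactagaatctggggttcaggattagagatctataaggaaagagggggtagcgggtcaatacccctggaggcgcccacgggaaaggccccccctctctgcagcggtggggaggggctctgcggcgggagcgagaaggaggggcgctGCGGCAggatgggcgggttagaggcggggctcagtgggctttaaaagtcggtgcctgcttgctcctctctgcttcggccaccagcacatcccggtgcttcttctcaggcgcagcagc
Nap1l5: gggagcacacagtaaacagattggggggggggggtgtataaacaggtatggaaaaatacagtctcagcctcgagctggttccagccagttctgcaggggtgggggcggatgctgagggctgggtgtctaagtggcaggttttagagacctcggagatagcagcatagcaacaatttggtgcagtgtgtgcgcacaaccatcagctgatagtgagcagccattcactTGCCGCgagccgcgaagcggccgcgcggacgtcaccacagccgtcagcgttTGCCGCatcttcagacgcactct
Copg2: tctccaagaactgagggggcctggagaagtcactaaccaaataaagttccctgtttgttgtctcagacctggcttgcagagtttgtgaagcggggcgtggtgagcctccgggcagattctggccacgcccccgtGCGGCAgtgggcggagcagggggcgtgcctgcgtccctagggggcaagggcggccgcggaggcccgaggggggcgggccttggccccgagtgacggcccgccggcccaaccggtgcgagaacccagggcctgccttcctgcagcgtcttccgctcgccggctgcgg
The printed Mest window and the Nap1l5 window held 2 matches and 17 CpG each, and the Copg2 window 1 match and 25 CpG. Mest has 2 further windows in the table, 1 that starts 3 bases on with the same counts and 1 upstream, at chr6:30733256-30733555, with 8 CpG and 0 matches. Of the 44 members 35 had a promoter window in the table, and 14 of their 56 windows (25%) held the hexamer, against 11.6% of all 32851 windows of 300 bases. The median number of CpG was 13.5 in the members' windows and 7 in all windows. A match is a run of letters, not a measured binding site.

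Mest, which encodes a protein of the hydrolase fold, had the largest rise of the tested members from primordial to primary. Its signals were 182, 212.5, 228 and 227 in primordial samples, then 1292, 1249, 1242.5 and 1274 in primary samples. They were 1907, 1845.5, 2102 and 2485 in secondary, 2227, 1850, 1839 and 2383 in small antral and 2017.5, 2254, 2512.5 and 1935 in large antral samples. The primordial samples lay far below all the rest, and the 3 later stages overlapped one another above the primary samples. The log2 change from primordial to primary was 2.41 ± 0.11 (SE; adjusted p = 1.4e-14), and 2.23 ± 0.14 (SE; adjusted p = 4.5e-11) unmixed. From primary to secondary it was 0.70 ± 0.11 (SE; adjusted p = 1.2e-04), and from primary to large antral 0.76 ± 0.11 (SE; adjusted p = 7.1e-06).

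Copg2, a coatomer subunit gene that lies tail to tail with Mest, did not follow it after the primary stage. Its signals were 523, 422, 436 and 353 in primordial and 706, 816, 651 and 799.7 in primary samples. They were 207.5, 463, 535 and 255 in secondary, 221, 594, 559 and 291 in small antral and 665, 570, 642 and 519 in large antral samples. The secondary and small antral samples each split into a low and a high pair, and all 4 secondary samples lay below all 4 primary ones. Copg2 rose by 0.74 ± 0.25 (SE; adjusted p = 0.015) from primordial to primary, with 1.07 ± 0.30 (SE; adjusted p = 0.005) unmixed, and changed by -1.05 ± 0.25 (SE; adjusted p = 0.0047) from primary to secondary.

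Nap1l5, a nucleosome assembly protein family gene, had the largest rise from primary to large antral among the probe sets that stand for the members. Its signals were 6.3, 27, 6.2 and 67.3 in primordial, 122, 69.4, 50.3 and 9.6 in primary and 19.5, 62.2, 102 and 57.9 in secondary samples. They were 44.7, 15.2, 104 and 108 in small antral and 191, 238, 222 and 207 in large antral samples. The large antral samples were the only ones all above 100, and none overlapped an earlier sample. The change from primary to large antral was 1.52 ± 0.39 (SE; adjusted p = 0.0028). From small to large antral it was 1.43 ± 0.39 (SE; adjusted p = 0.021), a call that was lost with unmixed primordial values (adjusted p = 0.11), without small antral replicate 1 or 2 (adjusted p = 0.06 and 0.073) and without large antral replicate 2 or 3 (adjusted p = 0.056 and 0.051).

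Impact, which encodes an inhibitor of the translation-controlling kinase GCN2, fell in 2 steps by the probe set that stands for it. Its signals were 569, 545, 562 and 580.4 in primordial and 546, 565, 519 and 527 in primary samples. They were 210.1, 221, 145 and 215 in secondary, 186, 215, 225 and 169 in small antral and 90.5, 114, 98.1 and 144.5 in large antral samples. The first 2 stages lay within a narrow band, the middle ones lower, and the large antral samples lowest without overlap. The change was -1.33 ± 0.14 (SE; adjusted p = 3.5e-07) from primary to secondary, -0.69 ± 0.14 (SE; adjusted p = 0.0027) from small to large antral and -2.00 ± 0.14 (SE; adjusted p = 3.9e-11) from primary to large antral, the largest fall of any member over that span. Impact has 2 further tested probe sets, both on 430B, and neither was called in any comparison. Their changes from primary to large antral were -0.43 ± 0.25 and 0.44 ± 0.38 (SE; adjusted p = 0.30 and 0.55).

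Grb10, an adaptor of the insulin receptor that restrains growth, peaked at the primary stage by the probe set that stands for it. Its signals were 427, 886, 816 and 793 in primordial and 1827, 1486, 1643.5 and 1516 in primary samples. They were 644, 875, 763 and 626 in secondary, 470.3, 674, 651 and 579 in small antral and 667, 638, 753.5 and 706 in large antral samples. The 4 primary samples stood above all 16 others. Grb10 rose by 1.16 ± 0.17 (SE; adjusted p = 2.1e-06) from primordial to primary, with 0.72 ± 0.24 (SE; adjusted p = 0.017) unmixed, then changed by -1.13 ± 0.17 (SE; adjusted p = 3.5e-05) from primary to secondary and by -1.19 ± 0.17 (SE; adjusted p = 2.8e-06) from primary to large antral. A second tested Grb10 probe set had its lowest mean, 62.6, at the primary stage, with 96.6 in primordial and 111 in large antral samples. It was called in no comparison (0.60 ± 0.28 from primary to large antral, SE; adjusted p = 0.098).

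Gnas encodes the stimulatory G protein alpha subunit, which raises cAMP and so holds oocytes in meiotic arrest. Its signals were 2793, 3329.7, 2823.5 and 2699 in primordial and 5641.5, 5338, 5697.5 and 5726 in primary samples. They were 4398, 5063, 4406 and 4148 in secondary, 2995, 3622.5, 3237 and 3079 in small antral and 3070, 2488, 2890.2 and 2458 in large antral samples. The primary samples were again the highest, and the antral samples were back in or near the primordial range. Gnas rose by 0.94 ± 0.10 (SE; adjusted p = 9.7e-09) from primordial to primary, with 0.86 ± 0.12 (SE; adjusted p = 5.4e-06) unmixed. It then changed by -0.47 ± 0.10 (SE; adjusted p = 0.001) from secondary to small antral and by -1.04 ± 0.10 (SE; adjusted p = 4.8e-09) from primary to large antral. The smaller change from primary to secondary, -0.32 ± 0.10 (SE; adjusted p = 0.023), was lost unmixed (adjusted p = 0.13) and without primary replicate 3 or 4 or secondary replicate 1 or 4 (adjusted p = 0.054 to 0.078).

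Inpp5f, a phosphoinositide phosphatase gene with an imprinted variant, was also highest at the primary stage by the probe set that stands for it, on 430B. Its signals were 5919, 4538, 5678 and 5358 in primordial and 11145, 10425, 9803 and 9451 in primary samples. They were 7411, 7723.5, 9119 and 6813 in secondary, 3648.5, 4716.5, 5773 and 4064 in small antral and 3164, 3492, 4160.2 and 3313 in large antral samples. The change was 0.93 ± 0.13 (SE; adjusted p = 3.4e-06) from primordial to primary, 1.09 ± 0.17 (SE; adjusted p = 2.4e-05) unmixed, then -0.78 ± 0.13 (SE; adjusted p = 2.3e-04) from secondary to small antral and -1.53 ± 0.13 (SE; adjusted p = 1.9e-09) from primary to large antral. A second probe set of the gene went the other way from primordial to primary, from a mean of 1257 to 751 (-0.72 ± 0.17, SE; adjusted p = 0.0025). Without the 3 small antral samples of doubtful protocol, the Inpp5f change from secondary to small antral was -1.08 (adjusted p = 0.0012), with the lone remaining sample assumed to vary like the rest.

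Of 12 members with a promoter known to become methylated in oocytes, 9 were tested. From primordial to primary 6 of them rose and 1 fell, where 25.2% of all tested genes rose and 23.4% fell. Between the primary and secondary stages 1 rose and 4 fell, beside 9.13% and 6.69% of all tested genes. From primary to large antral 2 rose (Mest and Nap1l5) and 6 fell (Impact, Inpp5f, Grb10, Sgce, Gnas and Peg3), and Plagl1 was not called. Their median log2 change over that span was -1.04, beside 0.01 for all tested genes, of which 17.1% rose and 17.5% fell. With unmixed primordial values 8 of these 8 calls were also made. Each call rests on 1 probe set per gene. Over that span further probe sets of Inpp5f (-0.72 and -1.76) and 1 of Peg3 (-1.40) also fell, while another of Peg3 was not called (0.06). Further tested probe sets of Impact, Grb10, Sgce and Gnas were not called, with changes of -0.43 to 0.67. The list of 12 members was drawn up with earlier results of these samples known.

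**Figure D3:**
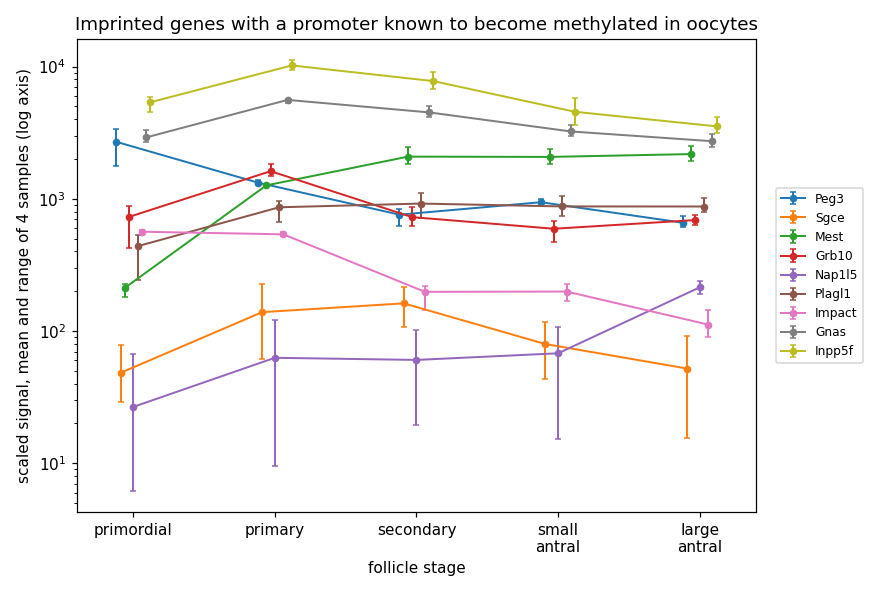
Scaled signal (vertical log axis) by follicle stage (horizontal axis) of the 9 tested members with a promoter known to become methylated in oocytes. Points are means of the 4 values as deposited, bars run from the lowest to the highest, and signals of different genes come from different probe sets and cannot be compared. Impact, Gnas, Inpp5f, Grb10 and Peg3 stand lower at the large antral than at the primary stage without overlap, and Mest and Nap1l5 higher.

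Peg3, a zinc finger gene, was the paternally expressed gene with the most calls outside the 17. Its mean signal was 2699 in primordial, 1326 in primary, 759 in secondary, 943 in small antral and 660 in large antral samples. The change was -0.97 ± 0.14 (SE; adjusted p = 2.0e-06) from primordial to primary, with -1.36 ± 0.21 (SE; adjusted p = 1.2e-05) unmixed, then -0.79 ± 0.14 (SE; adjusted p = 2.8e-04) from primary to secondary and -0.98 ± 0.14 (SE; adjusted p = 3.6e-06) from primary to large antral. From small to large antral it was -0.50 ± 0.14 (SE; adjusted p = 0.024), a call that was lost unmixed (adjusted p = 0.24). Plagl1, a zinc finger transcription factor gene, went from a mean of 438 to 863 from primordial to primary, 0.97 ± 0.19 (SE; adjusted p = 8.4e-05), a call that was lost unmixed (0.52, adjusted p = 0.10). Sgce, a sarcoglycan gene, rose by 1.04 ± 0.33 (SE; adjusted p = 0.0089) in that step, with 1.08 ± 0.38 (SE; adjusted p = 0.023) unmixed, and changed by -1.05 ± 0.33 (SE; adjusted p = 0.011) from primary to large antral, with overlapping samples in both. A second tested Sgce probe set, on 430B, was called in neither (1.15 ± 0.44 and 0.67 ± 0.44, SE; adjusted p = 0.051 and 0.39).

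**Figure D4:**
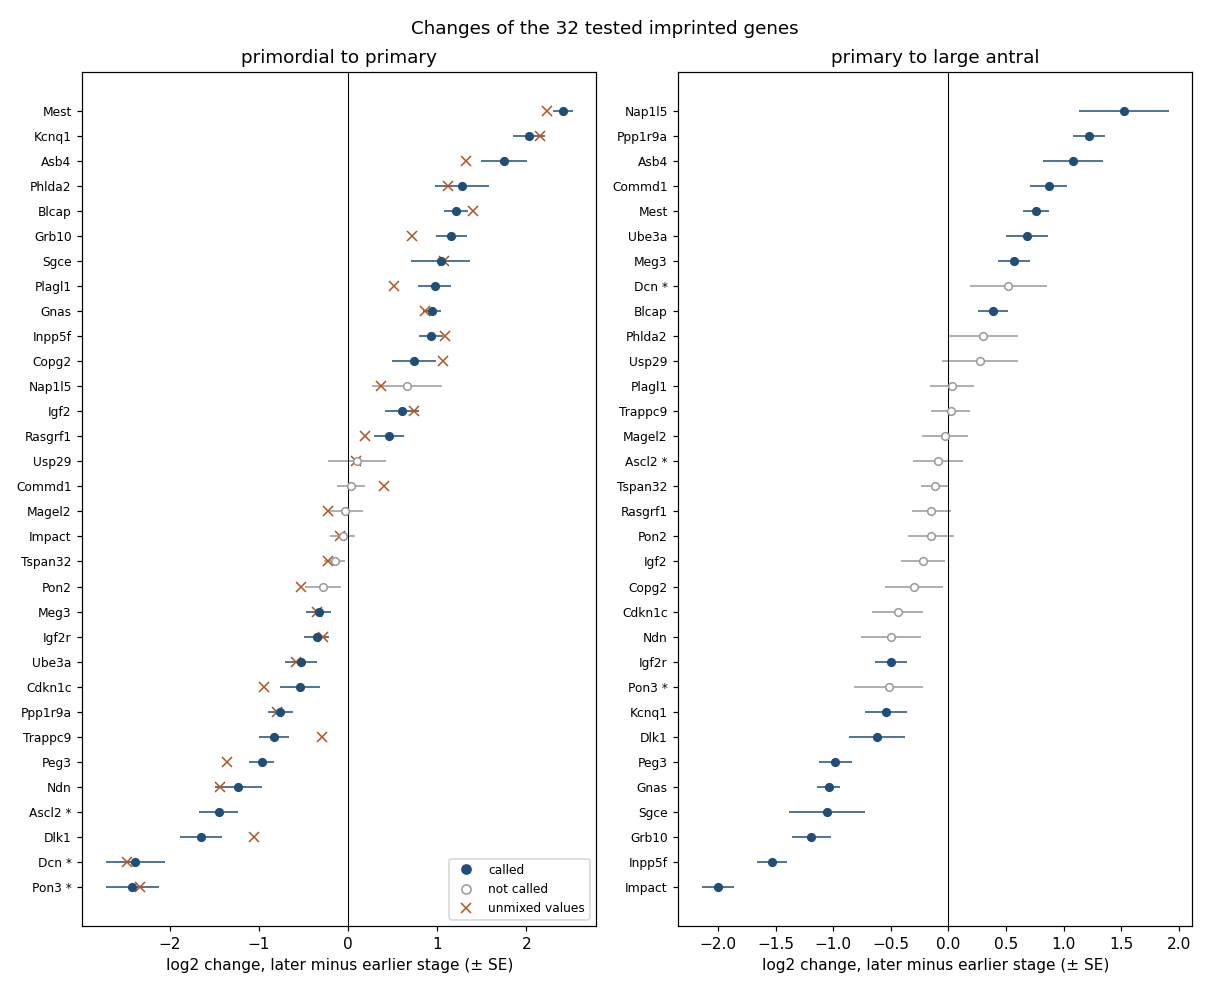
Log2 change (later minus earlier stage, horizontal axis) with its SE for each of the 32 tested imprinted genes (vertical axis), from primordial to primary and from primary to large antral. Filled blue points were called, open grey points were not, and orange crosses are the changes with unmixed primordial values. The asterisks mark 3 genes that passed the filter through the primordial stage, whose change from it is a description. Mest stands at 2.41 and Dlk1 at -1.65 in the first comparison, and Nap1l5 at 1.52 and Impact at -2.00 in the second.

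Blcap, a small membrane protein gene that hosts the imprinted Nnat in its intron, rose with growth, while Nnat stayed below the filter at 88.7 or less. Blcap signals were 696, 535, 685.5 and 546 in primordial and 1203, 1593, 1690.4 and 1380.5 in primary samples. They were 1591, 1356, 1532 and 1385 in secondary, 1304, 2002, 1706 and 1397 in small antral and 1971, 2033, 1998 and 1670.4 in large antral samples. All primordial samples lay below 700 and all others above 1200. The change was 1.21 ± 0.13 (SE; adjusted p = 3.2e-08) from primordial to primary and 1.40 ± 0.18 (SE; adjusted p = 1.1e-06) unmixed. The change from primary to large antral, 0.39 ± 0.13 (SE; adjusted p = 0.022), had overlapping samples and was lost unmixed (adjusted p = 0.11) and without primary replicate 1 or 4 or large antral replicate 2 or 3 (adjusted p = 0.054 to 0.094).

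The cluster on distal chromosome 7 holds Kcnq1, Phlda2, Cdkn1c, Ascl2 and Igf2, and 6 of its members were tested. From primordial to primary 3 rose and 2 fell, Ascl2 among the latter, which is 83.3% called beside 48.6% of all genes. From primary to large antral 1 fell and 0 rose, which is 16.7% beside 34.6%.

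Kcnq1, a voltage-gated potassium channel gene, had the second largest rise of the tested members at the first transition. Its signals were 126, 92.3, 181 and 92.1 in primordial and 431, 632, 674.5 and 635 in primary samples. They were 359, 389.8, 467 and 442 in secondary, 249.7, 421, 268 and 289.9 in small antral and 442, 339, 454 and 346.5 in large antral samples. All primordial samples lay below all later ones. The change was 2.03 ± 0.18 (SE; adjusted p = 1.2e-09) and 2.15 ± 0.26 (SE; adjusted p = 5.9e-07) unmixed. The later change from primary to large antral, -0.54 ± 0.18 (SE; adjusted p = 0.02), had overlapping samples and was lost unmixed (adjusted p = 0.13), without primary replicate 2, 3 or 4 and without large antral replicate 2 or 4 (adjusted p = 0.052 to 0.065).

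Phlda2, which encodes a PH domain protein that restrains growth of the placenta, rose from low signals. Its signals were 7.6, 11.4, 17.2 and 17.6 in primordial and 83.6, 60.2, 76.7 and 93.3 in primary samples. They were 285, 145, 220.4 and 149 in secondary, 141, 148, 81.6 and 169.6 in small antral and 171, 24.8, 119.5 and 159 in large antral samples. The first 3 stages did not overlap, and the later ones spread widely, with 1 large antral sample at 24.8. The change was 1.28 ± 0.30 (SE; adjusted p = 8.6e-04) from primordial to primary, with 1.12 ± 0.33 (SE; adjusted p = 0.007) unmixed. From primary to secondary it was 1.04 ± 0.30 (SE; adjusted p = 0.018), which was lost unmixed (adjusted p = 0.055), without primary replicate 2 (adjusted p = 0.055) and without secondary replicate 1 (adjusted p = 0.074).

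Ascl2, a transcription factor gene needed for the placenta, had signals above 100 in primordial samples alone. Its signals were 262, 159, 161 and 159.9 in primordial and 41, 37.4, 81 and 33.1 in primary samples. They were 52.9, 25.5, 38.7 and 42.7 in secondary, 41.3, 30.8, 47.2 and 35 in small antral and 42.9, 39.7, 37 and 45.6 in large antral samples. The log2 difference from primordial to primary was -1.45, with no test since the gene passed the filter through the primordial stage. With unmixing, Ascl2 gave 268, 61.9, 65.3 and 65.9 at the primordial stage, where replicate 1 stood alone and the other 3 samples lay within the primary range, and Ascl2 was then below the filter and not tested.

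Cdkn1c, an inhibitor of cyclin-dependent kinases, had a mean of 555 in primordial and 368 in primary samples, -0.54 ± 0.22 (SE; adjusted p = 0.035), with overlapping samples. Unmixed it was -0.94 ± 0.27 (SE; adjusted p = 0.0066). Igf2, the fetal growth factor, went from 134 to 211 in the same step, 0.60 ± 0.19 (SE; adjusted p = 0.011), also with overlap, and 0.74 ± 0.29 (SE; adjusted p = 0.042) unmixed. Its receptor Igf2r, which clears IGF2, went from 1055 to 821 (-0.35 ± 0.14, SE; adjusted p = 0.038), a call lost unmixed (adjusted p = 0.17), while a second Igf2r probe set rose (0.50 ± 0.16, SE; adjusted p = 0.011). From primary to large antral Igf2r changed by -0.50 ± 0.14 (SE; adjusted p = 0.0065).

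In the cluster on proximal chromosome 6, which holds Peg10 and Sgce, the tested genes Asb4, Ppp1r9a and Pon3 each had a stage order of their own. Asb4, a subunit gene of a ubiquitin ligase, rose. Its signals were 4.6, 13.8, 66.8 and 72.7 in primordial and 154, 176.5, 158 and 266 in primary samples. They were 209, 243, 330.1 and 301 in secondary, 344, 366, 432 and 472 in small antral and 321, 429, 477 and 499 in large antral samples. The primordial, primary and small antral samples did not overlap one another. The change was 1.75 ± 0.26 (SE; adjusted p = 3.4e-06) from primordial to primary, 1.32 ± 0.36 (SE; adjusted p = 0.0039) unmixed, and 1.08 ± 0.26 (SE; adjusted p = 0.0016) from primary to large antral. A second Asb4 probe set also rose in both (1.01 ± 0.23 and 1.33 ± 0.23, SE; adjusted p = 6.4e-04 and 4.9e-05).

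Ppp1r9a, which encodes neurabin, an actin-binding partner of protein phosphatase 1, fell and then rose on 430B. Its signals were 1145.5, 1168.5, 1129.6 and 1229 in primordial and 672.5, 644, 858 and 568.5 in primary samples. They were 694, 891, 629.8 and 791 in secondary, 1735, 1823, 1474 and 1629 in small antral and 1461, 1493, 1498 and 2101 in large antral samples. Primary and secondary samples formed the low group, and the antral samples stood above all others. The change was -0.76 ± 0.14 (SE; adjusted p = 2.4e-04) from primordial to primary, -0.80 ± 0.16 (SE; adjusted p = 7.0e-04) unmixed, then 1.12 ± 0.14 (SE; adjusted p = 1.0e-05) from secondary to small antral and 1.22 ± 0.14 (SE; adjusted p = 6.2e-07) from primary to large antral. A second probe set had 1.10 ± 0.17 from secondary to small antral (SE; adjusted p = 9.3e-05). Without the 3 small antral samples of doubtful protocol that change of Ppp1r9a was 1.18 (adjusted p = 0.0071).

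Pon3, a lactonase of the paraoxonase family, was high in primordial samples alone. Its signals were 493, 505.5, 422 and 401 in primordial and 19.2, 84.6, 62.5 and 87.3 in primary samples. They were 96.3, 74.1, 49.6 and 91.9 in secondary, 34.4, 46, 5.3 and 54.2 in small antral and 3.3, 41, 43.6 and 49.9 in large antral samples. The log2 difference from primordial to primary was -2.42, and -2.33 unmixed, likewise with no test. Its neighbour Pon2 had means of 121 and 93.7 at these stages and was not called. A second Pon2 probe set, on 430B, had means of 214 and 106 without overlap and was not called either (-0.88 ± 0.45, SE; adjusted p = 0.14). Another on 430B, below the filter, had signals of 66.9 to 118.9 in primordial and 11.7 to 15.6 in primary samples.

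The probe sets that stand for Dcn, Dlk1 and Ndn also had their highest signals in the primordial samples, and all 3 are expressed in connective tissue or other somatic cells. Dcn encodes decorin, a proteoglycan of the extracellular matrix. Its signals were 276, 368, 345 and 219 in primordial and 27.8, 24.8, 53.9 and 20.5 in primary samples. They were 74.1, 25.5, 13.9 and 90 in secondary, 33.7, 54.6, 19.2 and 100.5 in small antral and 69.4, 19.8, 65.7 and 92.9 in large antral samples. Primordial samples lay above all others. The log2 difference from primordial to primary was -2.39, and -2.48 unmixed, again with no test. A second Dcn probe set, on 430B, had means of 301 in primordial, 268 in primary, 423 in secondary, 358 in small antral and 317 in large antral samples, with overlap, and was not called from primordial to primary (-0.28 ± 0.39, SE; adjusted p = 0.63).

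Dlk1, a membrane protein that resembles Notch ligands, gave 615, 395, 451 and 402 in primordial and 184, 116, 128 and 84.7 in primary samples. It gave 109.9, 89.3, 91.2 and 117 in secondary, 97.6, 27.1, 130.2 and 87.3 in small antral and 71.4, 67.7, 58.8 and 83.7 in large antral samples. Here too the primordial samples lay above all others. The change from primordial to primary was -1.65 ± 0.24 (SE; adjusted p = 2.6e-06), with -1.06 ± 0.31 (SE; adjusted p = 0.0072) unmixed, where the primordial signals became 629, 193, 302 and 211. From primary to large antral it was -0.62 ± 0.24 (SE; adjusted p = 0.044), a call lost unmixed (adjusted p = 0.15), without any 1 of primary replicates 1 to 3 and without any 1 of large antral replicates 1 to 3 (adjusted p = 0.061 to 0.16).

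Ndn encodes necdin, a protein of the MAGE family that restrains cell growth, from the Prader-Willi region. Its signals were 293, 377.5, 313 and 439 in primordial and 154, 110.1, 147.5 and 121 in primary samples. They were 18.9, 122, 98.5 and 101.5 in secondary, 108.5, 133, 98.8 and 75.4 in small antral and 69, 61.5, 93.1 and 120 in large antral samples. Every primordial sample was above every later one. The change was -1.23 ± 0.26 (SE; adjusted p = 2.8e-04) from primordial to primary, with -1.44 ± 0.29 (SE; adjusted p = 3.0e-04) unmixed. Of 5 other tested Ndn probe sets 4 were also lower, by -0.97 to -2.19. These 4 passed the filter through the primordial stage, so their difference is a description, with no test. The remaining probe set was not called (-0.14 ± 0.29, SE; adjusted p = 0.72). Magel2 of the same region had means of 188 and 189 and was not called.

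Markers of theca, stroma and fibroblasts were measured beside these genes. Of 13 such markers 5 were tested on 430A, and their summed signal lay between 1356 and 1983 in primordial samples and between 1325 and 1695 in primary samples. It lay between 1361 and 1521 in secondary, 1506 and 1737 in small antral, and 1453 and 1808 in large antral samples, so the stages overlapped. Over both array types 7 were tested. From primordial to primary 1 rose (Col6a3, 0.46 ± 0.18, SE; adjusted p = 0.031) and 1 fell (Star, -0.80 ± 0.21, SE; adjusted p = 0.0025). Defining markers Col3a1, Pdgfra, Pdgfrb and Lum passed the filter on neither array type, with highest 430A signals of 107, 106.8, 51.3 and 126.1. Tcf21 was tested on 430B, with a mean of 719 in primordial and 562 in primary samples, and was not called (-0.36 ± 0.23, SE; adjusted p = 0.24). Nr2f2, also on 430B, had means of 171 and 242 and was not called (0.47 ± 0.33, SE; adjusted p = 0.30). In pooled RNA, fewer cells of a type and less RNA per cell cannot be told apart.

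Meg3, a noncoding RNA expressed from the maternal chromosome beside Dlk1, rose late in growth by 3 of its 10 tested probe sets. The means of the probe set that stands for it were 573 in primordial, 452 in primary, 494 in secondary, 799 in small antral and 683 in large antral samples. The change was 0.67 ± 0.14 (SE; adjusted p = 0.0011) from secondary to small antral and 0.57 ± 0.14 (SE; adjusted p = 0.0014) from primary to large antral. In both comparisons 3 of 4 probe sets on 430A rose and none of the 6 on 430B was called, with 430B changes of -0.14 to 0.26 and of -0.36 to 0.41. The largest of these rises were 1.56 ± 0.22 and 1.83 ± 0.22 (SE; adjusted p = 1.2e-05 and 2.2e-07), by a probe set with a mean of 32.4 in primary and 202 in large antral samples. From primordial to primary the probe set that stands for Meg3 changed by -0.33 ± 0.14 (SE; adjusted p = 0.041), a call lost unmixed (adjusted p = 0.10). In that step another Meg3 probe set fell (-0.70 on 430B; adjusted p = 0.042) and 2 rose (1.15 ± 0.25 and 0.80 ± 0.23, SE; adjusted p = 0.0011 and 0.0051).

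Of the remaining called members, Commd1, which acts in copper handling and NF-kappaB control, had means of 635, 653, 1051, 1273 and 1211 from primordial to large antral. It rose by 0.67 ± 0.16 (SE; adjusted p = 0.0048) from primary to secondary, which was lost unmixed (adjusted p = 0.055), and by 0.87 ± 0.16 (SE; adjusted p = 9.9e-05) from primary to large antral. A second Commd1 probe set fell from a mean of 897 to 427 from primordial to primary (-1.01 ± 0.12, SE; adjusted p = 1.2e-07), where the first was not called. It rose with the first in the other comparisons, by 0.55 ± 0.12 and 1.16 ± 0.12 (SE; adjusted p = 0.0021 and 3.3e-08). Ube3a, the ubiquitin ligase gene of the Angelman region, had means of 933, 642, 806, 823 and 1062. It changed by -0.53 ± 0.18 (SE; adjusted p = 0.014) from primordial to primary, with -0.59 ± 0.20 (SE; adjusted p = 0.017) unmixed, and by 0.68 ± 0.18 (SE; adjusted p = 0.0033) from primary to large antral. Ube3a has 6 tested probe sets, and only this 1 was called from primary to large antral, with changes of -0.17 to 0.13 in the others. From primordial to primary 1 other probe set fell (-0.82 ± 0.24, SE; adjusted p = 0.0049).

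Trappc9, a vesicle transport gene measured on 430B, had means of 2889, 1603, 921, 1000 and 1637 in the same order. All 3 of its calls were lost with unmixed values, the first of them at -0.29 (adjusted p = 0.42) in place of -0.83 from primordial to primary. Its unmixed primordial signals were 3710, 1532, 1651 and 1553, so that replicate 1 alone stood apart. The Trappc9 calls from primary to secondary (-0.80) and from small to large antral (0.71) compare samples without overlap, whose values unmixing leaves unchanged. Rasgrf1, a nucleotide exchange factor gene, rose by 0.46 ± 0.17 (SE; adjusted p = 0.02) from primordial to primary and was not called unmixed (0.19, adjusted p = 0.45).

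Probe sets of 1 gene mostly moved together where both were called. Among 200 pairs of a further probe set and a comparison, 26 were called in the direction of the probe set that stands for the gene and 4 in the opposite one, which belonged to Igf2r, Inpp5f and Meg3 (2). The 26 include falls of Ndn and Peg3 probe sets that passed the filter through the primordial stage, which are a description. In the remaining pairs at least 1 of the 2 probe sets was not called. No further tested probe set of Dcn, Gnas, Grb10, Impact, Plagl1, Sgce or Trappc9 was called in any comparison.

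For comparison, of 32 other imprinted genes 21 were tested, of which 4 rose and 5 fell from primordial to primary, 2 and 2 from primary to secondary, 1 and 1 from secondary to small antral, 2 and 0 from small to large antral, and 3 and 4 from primary to large antral. The shares called were 42.9%, 19%, 9.52%, 9.52% and 33.3%, beside 48.6%, 15.8%, 14.2%, 7.29% and 34.6% of all tested genes. Of 21 genes that write, erase or protect imprints, such as the DNA methyltransferases and Zfp57, 20 were tested. From primordial to primary 10 of these rose and 4 fell, then 3 and 4 from primary to secondary, 2 and 4 from secondary to small antral, 2 and 2 from small to large antral, and 5 and 8 from primary to large antral, or 70%, 35%, 30%, 20% and 65%. Both lists were also chosen with earlier results known.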

How the data were processed

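The samples were 40 arrays of oocyte RNA, 20 of each array type, with groups and replicate numbers read from the sample titles, save that the secondary 430A titles do not name the array type. RNA had been column-purified and amplified with a labelling assay for small samples, per the labels' protocols. The deposited values are linear array intensities per probe set, made with MAS5 per the submitters' processing notes, with version and scaling target not given in the sources used here. The number of arrays limits the precision.

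Arrays were brought to a trimmed mean of 500 (2% trimmed), and log2(signal + 32) was taken, which understates changes of low signals. Probe sets at 100 or more on at least 4 of 20 arrays were tested, 15845 of 22626 on 430A and 19115 of 22411 on 430B. limma 3.58.1 in R 4.3.3 (lmFit, eBayes with a trend, two-sided) fitted all 20 arrays of a type together, with 15 residual degrees of freedom and Benjamini-Hochberg adjustment within the type. The procedure was tested on simulated data. The unmixed values are an alternative whose form was known from an earlier analysis; 99 probe sets of 430A, no member among them, had none.

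The platform annotation gave a single symbol for 20380 probe sets of 430A and 14565 of 430B, several for 691 and 241, and none for 1555 and 7605. A gene is represented by the tested probe set with the highest mean, from 430A first. Genes with all samples given are those called with a log2 change of at least 1 and no overlap in a comparison. The members, the gene and marker lists and these rules were chosen with earlier results of these data known. The alternatives were other scalings, offsets, filters, variance models, sample sets, probe set choices, a replicate block and leaving out each replicate, with 1 added after the data were seen, without genes that passed the filter through 1 stage. Promoters came from RefSeq on GRCm38.p6.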

Additional observations from a re-analysis of the deposited data

Results flagged for a closer look

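In 8 of the 85 groups of 4 samples (17 described genes by 5 stages), 1 sample stood apart from the other 3 by a gap whose share of the group's range passed Dixon's critical value, which chance gives in about 1 in 20 groups. Pon3 had a scaled signal of 3.3 in large antral replicate 1, against 41 to 49.9 in the others. Kcnq1 had 431 in primary replicate 1, against 632 to 674. Impact had 145 in secondary replicate 3, against 210 to 221. Ndn had 18.9 in secondary replicate 1, against 98.5 to 122. Ppp1r9a had 2101 in large antral replicate 4, against 1461 to 1498. Blcap had 1670 in large antral replicate 4, against 1971 to 2033. Ascl2 had 262 in primordial replicate 1, against 159 to 161, and Grb10 had 427 there, against 793 to 886. In these last cases the other 3 samples have the form of means with replicate 1.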

How the results depend on the processing

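With unmixed primordial values the number of called imprinted genes was 5 from primary to secondary and 1 from small to large antral. Unmixing leaves the samples of these stages unchanged, and the cause was not tested. With the primordial stage left out of the fit, 10 and 5 were called in these comparisons, beside 9 and 5 in the main fit. Without genes that passed the filter through 1 stage, chosen after the data were seen, the 5 counts were 22, 9, 4, 5 and 17. Leaving out 1 replicate at a time gave 21 to 25 from primordial to primary, 7 to 10 from primary to secondary, 4 to 5 from secondary to small antral, 2 to 5 from small to large antral and 15 to 16 from primary to large antral. The other settings gave 21 to 26, 8 to 11, 4 to 6, 4 to 6 and 15 to 19 in the same order. Scaling to equal medians moved the 430B median over all probe sets from -0.23 to 0.05 on the log2 scale from primordial to primary, with 13 members higher and 8 lower. Of 1697 recomputed values of the 17 described genes, 1648 kept their direction and side of the threshold, 35 lost and 14 gained a call, and 0 reversed. Of their 24 called changes of at least 1 on the log2 scale, which include Ascl2, Dcn and Pon3, whose values are no support since the filter used them, 2 lost the call under some setting where they could be tested, Nap1l5 from small to large antral and Phlda2 from primary to secondary. Ascl2 could not be tested with unmixed values. The replicate block gave 25, 10, 4, 5 and 17 calls. Replicate numbers did not pair the samples: correlations of same-numbered samples' deviations ranged from -0.11 to 0.13 for 430A and from -0.04 to 0.06 for 430B, and 6 of 20 arrays of either type correlated best with their own number. On 430B, where the SE was 0.34 at the median, smaller changes were harder to detect.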
